A study of Mus musculus with 21 samples.

Results

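The genes described here are 7 genes of the pancreatic duct lineage, namely Muc1, Spp1, Cftr, Clu, Anxa3, Car2 and Prom1, taken as a named list, and 6 of them were measured among the 19296 genes tested. Spp1, which encodes the secreted phosphoprotein osteopontin, had no row under its symbol and was not analysed here. Cells came from mouse embryonic pancreas of mixed background (C57-Bl6/SV129/CD1) and were sorted by FVF, a fusion of the endodermal transcription factor Foxa2 with the fluorescent protein Venus, the sorting marker in all groups. FVF+ cells carried the fluorescent fusion protein and FVF- cells were the remaining cells of the organ. The FVF+ groups held 3, 2, 3 and 3 arrays on the 4 days from E12.5 to E15.5, and the FVF- groups 2, 2, 3 and 3, which gives 21 Affymetrix arrays in 8 groups. The labels do not say how many copies of the fusion the embryos carried, whether organs were pooled, or whether replicates came from separate litters, so the p-values reflect only how far these samples scatter, and precision is limited by how few arrays there are.

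The pancreatic ducts arise from the trunk of the branching embryonic epithelium, a bipotent domain that also releases endocrine precursors, while the tips give rise to acinar cells. Mature ducts carry the enzymes of the acini to the gut in a fluid rich in bicarbonate. Muc1, a transmembrane mucin, and Prom1, a cholesterol-binding glycoprotein of membrane protrusions, mark the apical surface of epithelia. Cftr, a chloride and bicarbonate channel, and Car2, a cytosolic carbonic anhydrase that makes bicarbonate, belong to the secretory machinery. Clu is a secreted chaperone, and Anxa3 is an annexin that binds phospholipids in the presence of calcium. None of these genes is expressed in ducts alone. Muc1 and Prom1 occur in many epithelia, Car2 is abundant in red blood cells, and Anxa3 is found in several cell types outside the epithelium.

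Foxa2 itself was 2.91 ± 0.10 log2 units higher in FVF+ than in FVF- cells (SE, limma adjusted p = 1.87e-14), with FVF+ arrays at 10.87 to 11.51 and FVF- arrays at 7.98 to 8.89. All 8 epithelial markers were higher in FVF+ cells, and all 10 mesenchymal, all 10 endothelial and all 10 macrophage markers were lower. All 5 measured acinar and all 8 endocrine markers were higher in FVF+ cells too, and of 6 measured neural crest and glia markers 2 were higher and 4 lower. Arrays of one group correlated with each other at 0.985 to 0.997 over all genes. At E13.5, 3 of the 4 arrays carried letter codes in the labels, and at the other days the arrays carried numbers.

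Promoter sequence was available from RefSeq (build GRCm38.p6) for 3 of the 6 measured genes, Muc1, Prom1 and Cftr. Muc1 and Prom1 were both higher in FVF+ cells but changed differently over the days, and Cftr hardly varied, so the 250 bases before the transcript start of each are given 5′ to 3′, with the letters TATAAA in capitals where they occur.
Muc1 (chr3:89228806-89229055, plus strand): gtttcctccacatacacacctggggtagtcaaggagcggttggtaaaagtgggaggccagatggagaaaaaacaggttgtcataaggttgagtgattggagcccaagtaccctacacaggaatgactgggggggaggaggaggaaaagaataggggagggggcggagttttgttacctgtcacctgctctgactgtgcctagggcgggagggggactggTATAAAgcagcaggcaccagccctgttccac
Prom1 (chr5:44101737-44101986, minus strand): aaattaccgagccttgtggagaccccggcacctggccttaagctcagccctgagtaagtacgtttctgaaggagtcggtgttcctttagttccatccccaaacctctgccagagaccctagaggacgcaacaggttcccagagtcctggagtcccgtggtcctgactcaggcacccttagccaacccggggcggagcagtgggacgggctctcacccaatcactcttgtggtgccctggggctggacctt
Cftr (chr6:18170437-18170686, plus strand): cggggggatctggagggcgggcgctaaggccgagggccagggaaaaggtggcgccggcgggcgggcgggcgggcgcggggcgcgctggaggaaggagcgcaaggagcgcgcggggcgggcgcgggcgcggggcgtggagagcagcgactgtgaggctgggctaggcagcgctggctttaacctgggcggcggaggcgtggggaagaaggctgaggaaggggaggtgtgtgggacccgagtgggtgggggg
The Muc1 window held TATAAA 31 bases before the start, letters found on either strand in 12.4% of the 32851 promoter windows. The Cftr window was the richest in G and C of those shown, at 76.4% with 30 CpG dinucleotides, against 59.2% and 9 CpG for Prom1 and 54.8% and 3 CpG for Muc1. The medians over all windows were 52.4% and 6 CpG. A further Prom1 start lies downstream, and its window (chr5:44094769-44095018, minus strand) was 50.8% G and C. The letters TGTTTAC and the letters TATTTAC (FOXA motifs), ATTGATT (ONECUT), ACAATGG and the letters ACAATAG (SOX), and GTGGGAA (RBPJ) were among the letters searched on both strands. They occurred in 3.17%, 2.73%, 2.61%, 3.02%, 2.08% and 5.42% of all windows and in none of the 4 windows of these genes, which says only that these letters are not there. TATAAA and base composition were chosen after the windows had been seen.

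The comparison of sorts asks which duct genes were higher in the Foxa2-Venus cells and which in the rest of the organ. The 6 genes split. Muc1, Clu and Prom1 were higher in FVF+ cells by 4.56, 2.95 and 1.76 log2 units, Cftr was higher by 0.20, and Anxa3 and Car2 were lower by over 3-fold. These are averages of the 4 daily differences with equal weight. All 6 genes were called, 4 higher and 2 lower, where 55.7% of all genes were called, 30.5% higher and 25.2% lower. With such a share in the background, the number of calls alone says little about the duct genes, and the sizes and directions below carry the description. The median difference was 0.978 over the 6 genes and 0.0279 over all genes. In sorted bulk samples, fewer cells of a type and less RNA per cell cannot be told apart.

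**Figure D1:**
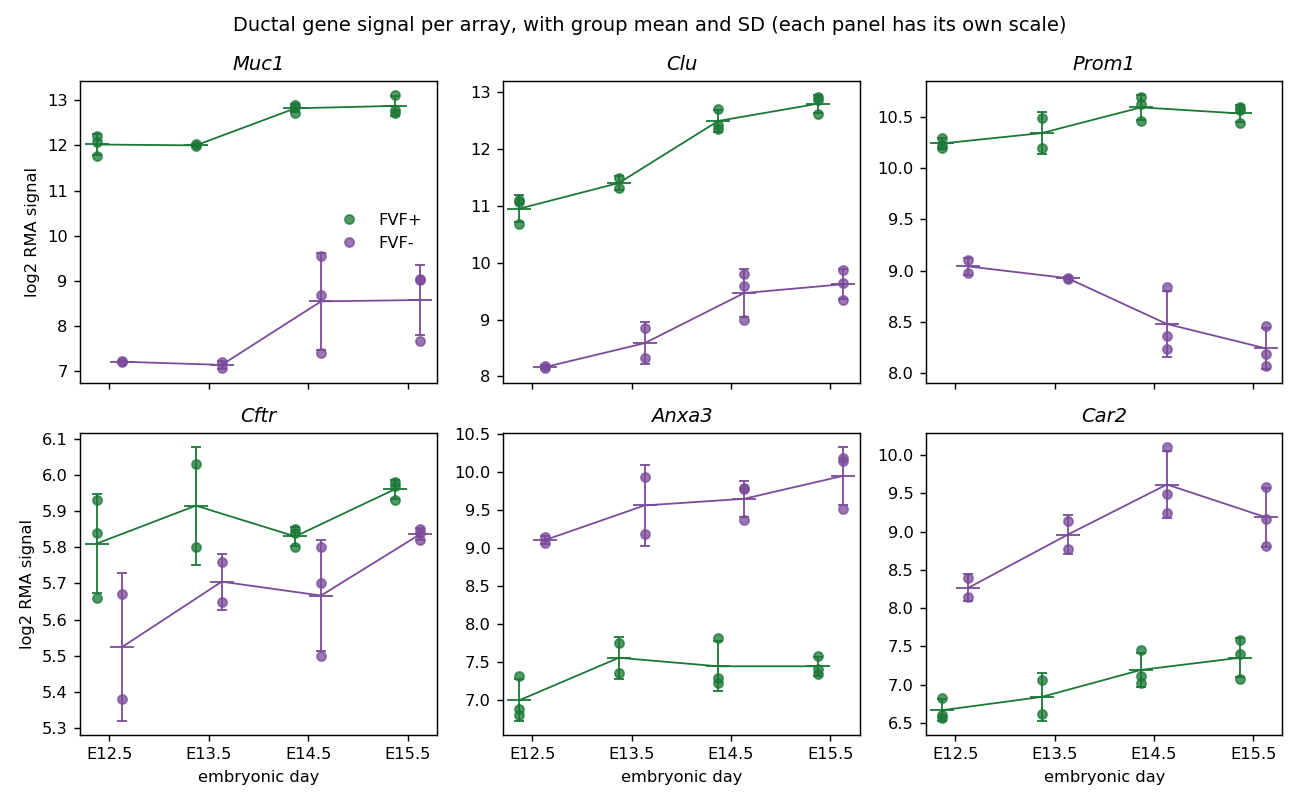
Log2 RMA signal of Muc1, Cftr, Clu, Anxa3, Car2 and Prom1 on each of 21 arrays by embryonic day, with FVF+ arrays left of FVF- arrays within a day. Points are arrays, horizontal ticks are group means joined by a line, vertical bars are the SD, and each panel has its own scale. FVF+ arrays lie above FVF- arrays for Muc1, Clu and Prom1, below them for Anxa3 and Car2, and overlap with them for Cftr.

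Muc1, the apical mucin, had the largest difference of the 6. Its signal in FVF+ cells was 11.77, 12.08 and 12.21 at E12.5, 12.02 and 11.98 at E13.5, 12.84, 12.90 and 12.72 at E14.5, and 12.72, 13.12 and 12.78 at E15.5. In FVF- cells it was 7.22 and 7.21 at E12.5, 7.08 and 7.21 at E13.5, 8.69, 7.41 and 9.55 at E14.5, and 7.68, 9.02 and 9.04 at E15.5. The lowest FVF+ array lay more than 2 log2 units above the highest FVF- array, and the FVF- arrays spread widely at the later days, with an SD of 1.08 at E14.5 and 0.78 at E15.5 (n = 3 each). The mean difference of 4.56 ± 0.21 corresponded to a 23.5-fold higher signal in FVF+ cells (SE, limma adjusted p = 9.02e-13). In order of days it was 4.81, 4.86, 4.27 and 4.29.

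Clu, the secreted chaperone, was higher in every FVF+ array and climbed over the days in both sorts. Its signal in FVF+ cells was 10.68, 11.07 and 11.11 at E12.5, 11.49 and 11.32 at E13.5, 12.42, 12.71 and 12.36 at E14.5, and 12.92, 12.86 and 12.62 at E15.5. In FVF- cells it was 8.14 and 8.19 at E12.5, 8.85 and 8.32 at E13.5, 9.60, 8.99 and 9.81 at E14.5, and 9.35, 9.64 and 9.88 at E15.5. The highest FVF- array of E15.5 thus stayed below the lowest FVF+ array of E12.5. The mean difference was 2.95 ± 0.11, or 7.75-fold (SE, limma adjusted p = 3.64e-14), and the daily differences were 2.79, 2.82, 3.03 and 3.18.

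Prom1, the glycoprotein of apical protrusions, changed little among FVF+ arrays and fell among FVF- arrays. In FVF+ cells it measured 10.20, 10.23 and 10.30 at E12.5, 10.49 and 10.20 at E13.5, 10.70, 10.46 and 10.63 at E14.5, and 10.57, 10.44 and 10.60 at E15.5. In FVF- cells it measured 8.98 and 9.10 at E12.5, 8.93 and 8.92 at E13.5, 8.36, 8.23 and 8.84 at E14.5, and 8.07, 8.18 and 8.46 at E15.5. No FVF- array reached the FVF+ arrays. The mean difference was 1.76 ± 0.07, or 3.39-fold (SE, limma adjusted p = 2.38e-13). The daily difference was 1.20 and 1.42 on the first days, E12.5 and E13.5, and 2.12 and 2.30 on the last, E14.5 and E15.5.

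Cftr, the anion channel, separated the sorts least. In FVF+ cells it measured 5.66, 5.84 and 5.93 at E12.5, 6.03 and 5.80 at E13.5, 5.84, 5.80 and 5.85 at E14.5, and 5.97, 5.93 and 5.98 at E15.5. In FVF- cells it measured 5.38 and 5.67 at E12.5, 5.65 and 5.76 at E13.5, 5.70, 5.80 and 5.50 at E14.5, and 5.82, 5.85 and 5.84 at E15.5. The whole range over 21 arrays was 5.38 to 6.03, and the sorts overlapped at E12.5 and E14.5. The mean difference of 0.20 ± 0.05 was a 1.15-fold higher signal in FVF+ cells (SE, limma adjusted p = 0.00385). No group mean reached 8.77, the median of all values, below which a gene was left out by the filter on dim genes, and Cftr therefore had no value under that alternative.

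Anxa3, the calcium-dependent annexin, was lower in FVF+ cells. Its signal in FVF+ cells was 7.31, 6.80 and 6.88 at E12.5, 7.36 and 7.75 at E13.5, 7.22, 7.82 and 7.29 at E14.5, and 7.34, 7.41 and 7.58 at E15.5. In FVF- cells it was 9.14 and 9.07 at E12.5, 9.94 and 9.18 at E13.5, 9.37, 9.79 and 9.78 at E14.5, and 10.15, 9.51 and 10.19 at E15.5. Every FVF+ array lay more than 1 log2 unit below every FVF- array. The mean difference was -2.21 ± 0.12, a 4.61-fold lower signal (SE, limma adjusted p = 9.21e-12), and the daily differences were -2.11, -2.01, -2.20 and -2.51.

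Car2, the cytosolic carbonic anhydrase, followed the same order of sorts. Its signal in FVF+ cells was 6.57, 6.83 and 6.60 at E12.5, 7.06 and 6.62 at E13.5, 7.11, 7.45 and 7.02 at E14.5, and 7.58, 7.40 and 7.08 at E15.5. In FVF- cells it was 8.14 and 8.39 at E12.5, 8.78 and 9.14 at E13.5, 9.49, 9.25 and 10.11 at E14.5, and 9.59, 8.81 and 9.16 at E15.5. The sorts did not overlap, and the highest value stood on replicate 3 of FVF- E14.5. The mean difference was -1.99 ± 0.12, a 3.98-fold lower signal in FVF+ cells (SE, limma adjusted p = 3.87e-11). The daily differences were -1.60, -2.12, -2.42 and -1.83 in order of days.

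**Figure D2:**
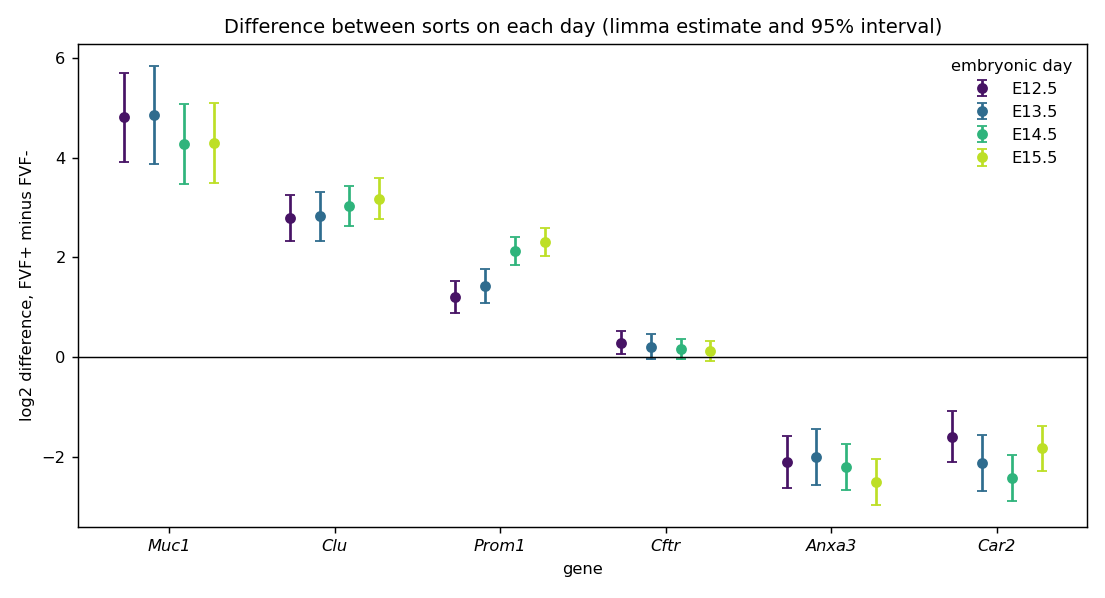
FVF+ minus FVF- difference in log2 signal of the 6 duct genes on each of the 4 days, with points for the limma estimate and bars for its 95% interval. Muc1 lies above 4 at each day, Prom1 moves up to 2.30 at E15.5, Cftr lies near 0, and Anxa3 and Car2 lie below 0 throughout.

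Day by day, the directions held. At E12.5 all 6 genes were called, 4 higher and 2 lower in FVF+ cells, where 35.9% of all genes were called. At E13.5, E14.5 and E15.5 there were 5 calls each, 3 higher and 2 lower, against backgrounds of 30.9%, 44.6% and 43.9%. The gene without a call at these days was Cftr, with differences of 0.21, 0.16 and 0.12 (limma adjusted p = 0.204, 0.193 and 0.325) and 95% intervals of -0.04 to 0.46, -0.04 to 0.37 and -0.08 to 0.33. The Cftr call at E12.5, a difference of 0.29 ± 0.11 (SE, limma adjusted p = 0.0481), was lost with array medians set equal (adjusted p = 0.0819). It was also lost without replicate 1 of FVF- E12.5 (difference 0.14, adjusted p = 0.467), replicate 2 of FVF+ E12.5 (0.27, adjusted p = 0.106) or replicate 3 of FVF+ E12.5 (0.23, adjusted p = 0.171).

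The groups can be ordered by mean signal, and neighbours whose arrays overlap are not told apart. With 2 or 3 arrays per group, a lack of overlap is a description and does not tell groups apart either. From E12.5 to E13.5, for example, Clu in FVF+ cells and Prom1 and Anxa3 in FVF- cells did not overlap. None of these was called (limma adjusted p = 0.518, 0.784 and 0.467). For Muc1 the order was FVF+ E15.5 and E14.5, which overlapped, then FVF+ E12.5 and E13.5, which overlapped, then FVF- E15.5 and E14.5, which overlapped, and last FVF- E12.5 and E13.5, which overlapped. Clu ran FVF+ E15.5, E14.5, E13.5, E12.5, then FVF- in the same order of days, and within either sort only E15.5 and E14.5 overlapped. Prom1 had its 4 FVF+ groups on top, each overlapping the next, followed by FVF- E12.5, E13.5 and E14.5 without overlap and by FVF- E15.5, which overlapped FVF- E14.5. Anxa3 and Car2 had the 4 FVF- groups on top, and among FVF- groups E12.5 was lowest, with no array overlapping the others. The 8 groups of Cftr formed a chain in which each overlapped the next.

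Change over the days was compared next, as E15.5 against E12.5 within either sort. In FVF+ cells Clu rose 3.60-fold and Car2 rose 1.61-fold, while Muc1, Anxa3, Prom1 and Cftr did not pass the test. That is 2 of 6 genes higher and 0 lower, where 46.9% of all genes were called, 27.6% higher and 19.3% lower. Clu averaged 12.80 ± 0.16 at E15.5 and 10.95 ± 0.24 at E12.5 (SD, n = 3 each), a difference of 1.85 ± 0.19 (SE, limma adjusted p = 1.46e-06). Car2 averaged 7.35 ± 0.25 at E15.5 and 6.67 ± 0.14 at E12.5 (SD, n = 3 each), a difference of 0.69 ± 0.22 (SE, limma adjusted p = 0.016). The Car2 call was lost under quantile normalization (adjusted p = 0.093) and cyclic loess normalization (0.083). It was lost too without replicate 3 of FVF+ E12.5 (difference 0.65, adjusted p = 0.0505) or replicate 1 of FVF+ E15.5 (0.57, adjusted p = 0.0683).

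Muc1 in FVF+ cells differed by 0.85 ± 0.38 (limma adjusted p = 0.0747), Anxa3 by 0.45 ± 0.22 (0.101), Prom1 by 0.29 ± 0.13 (0.0799) and Cftr by 0.15 ± 0.10 (0.211), with SEs. Their 95% intervals ran 0.05 to 1.66 for Muc1, -0.01 to 0.91 for Anxa3, 0.01 to 0.57 for Prom1 and -0.05 to 0.35 for Cftr, so a rise of the size of the Car2 rise is outside the interval for Prom1 and Cftr and inside it for Muc1 and Anxa3. Prom1 passed under quantile normalization (adjusted p = 0.0227), cyclic loess normalization (0.0381) and the replicate block (0.0399), and Anxa3 passed with array weights (0.0319) and without replicate 1 of FVF+ E12.5 (difference 0.60, adjusted p = 0.0484). The median change was 0.567 over the 6 genes and 0.0933 over all genes.

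**Figure D3:**
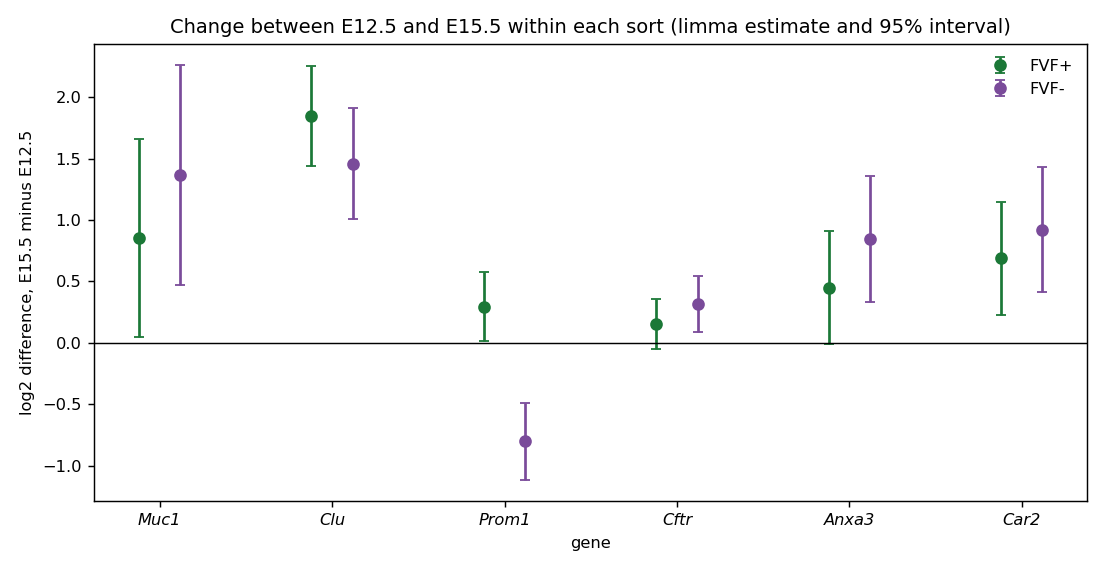
E15.5 minus E12.5 difference in log2 signal of the 6 duct genes, FVF+ beside FVF-, with bars for the 95% interval of the limma estimate. Prom1 is at 0.29 in FVF+ cells and -0.80 in FVF- cells, and the intervals of the other 5 genes overlap between sorts.

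In FVF- cells 5 of the 6 genes rose and Prom1 fell, where 20.4% of all genes were called, 10.7% higher and 9.7% lower. Higher genes were 52.5% of all called genes with the values as deposited, 36.8% with array medians set equal and 64.3% after cyclic loess normalization. Clu averaged 9.62 ± 0.27 at E15.5 (SD, n = 3), with 8.14 and 8.19 on the E12.5 arrays, a difference of 1.46 ± 0.22 (SE, limma adjusted p = 1.21e-04). Prom1 averaged 8.24 ± 0.20 at E15.5 (SD, n = 3), with 8.98 and 9.10 at E12.5, a difference of -0.80 ± 0.15 (SE, limma adjusted p = 9.17e-04). These 2 calls were kept whichever array was left out. The rises of Muc1 (1.37 ± 0.43, limma adjusted p = 0.0301), Car2 (0.92 ± 0.24, 0.0115), Anxa3 (0.85 ± 0.24, 0.0197) and Cftr (0.31 ± 0.11, 0.0497, with SEs) each lost the call in some fits without 1 array. The differences themselves stayed above 0 in all of those fits. They ran 1.135 to 1.815 for Muc1, 0.72 to 1.11 for Car2, 0.725 to 1.065 for Anxa3 and 0.17 to 0.46 for Cftr. The median change was 0.883 over the 6 genes and -0.005 over all genes.

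Fits that left 1 array in a group are given by their differences only, and these do not show that a call held. Without replicate 1 of FVF- E12.5, which left 1 array in that group, the differences were 1.37 for Muc1, 0.80 for Car2, 0.88 for Anxa3 and 0.17 for Cftr. Without replicate 2 of FVF- E12.5, which also left 1 array, the differences were 1.36 for Muc1 and 0.81 for Anxa3. Without replicate 1 of FVF- E15.5, the calls of Car2 (limma adjusted p = 0.059), Anxa3 (0.0738) and Cftr (0.0902) were lost. Without replicate 2 those of Muc1 (0.105) and Cftr (0.0994) were lost, and without replicate 3 those of Muc1 (0.11), Anxa3 (0.0752) and Cftr (0.0966). The Cftr call was lost with array medians set equal too (difference 0.23, adjusted p = 0.203).

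The difference between the sorts in their change over the days was tested itself. It passed for 1 of the 6 genes, Prom1, where 19.6% of all genes passed. Prom1 changed by 0.29 in FVF+ cells and by -0.80 in FVF- cells, a difference of 1.10 ± 0.20 (SE, limma adjusted p = 0.00125). In the same test 3 of 8 endocrine markers were higher and 0 lower, with a median of 1.21, and 4 of 8 epithelial markers were lower and 0 higher, with a median of -1.27. The medians of the other marker lists lay between -0.988 (mesothelial) and 0.085 (red blood cell). The endocrine median change was 1.22 in FVF+ and 0.274 in FVF- cells, unlike that of Prom1, which fell in FVF- cells. The part of these lists in the Prom1 result was not tested. In linear terms the Prom1 FVF+ to FVF- ratio was 4.92 at E15.5 and 2.30 at E12.5. Under 21 alternatives the value lay between 1.01 and 1.37 and the adjusted p between 1.56e-04 and 0.012. For Muc1 (-0.51, 95% interval -1.72 to 0.69, adjusted p = 0.56), Clu (0.39, -0.22 to 0.997, 0.361), Anxa3 (-0.40, -1.09 to 0.29, 0.412), Car2 (-0.24, -0.92 to 0.45, 0.646) and Cftr (-0.16, -0.47 to 0.14, 0.457) the difference in change did not pass the test.

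Single steps between neighbouring days were tested as well, and the steps were not tested against each other. In FVF+ cells Clu was higher at E14.5 than at E13.5 by 1.09 ± 0.22 (SE, limma adjusted p = 0.00339), and it was the 1 gene of the 6 called in that step, where 8.85% of all genes were called. The call was lost without replicate 2 of FVF+ E13.5 (difference 1.01, adjusted p = 0.0641). In FVF- cells Clu was higher over the same step by 0.88 ± 0.22 (SE, limma adjusted p = 0.0218), again the 1 call, where 8.3% of all genes were called. That call was lost without replicate 2 of FVF- E13.5 (0.62, adjusted p = 0.332) or replicate 1 of FVF- E14.5 (0.82, adjusted p = 0.0837). Muc1 in FVF- cells had a step of 1.41 ± 0.43 there (SE, limma adjusted p = 0.0501), and it passed without replicate 2 of FVF- E14.5 (1.98, adjusted p = 0.00495). Prom1 over that step in FVF- cells had a difference of -0.45 (adjusted p = 0.0693), which passed under median centring (0.0482), quantile normalization (0.0481) and the replicate block (0.0198), and without replicate 3 of FVF- E14.5 (-0.63, adjusted p = 0.00887). None of the 6 genes was called between E12.5 and E13.5 or between E14.5 and E15.5 in either sort, where 0.00518% and 25.6% of all genes were called in FVF+ cells and 1.02% and 6.49% in FVF- cells. At an unadjusted limma p under 0.05 there was 1 gene in either sort between E12.5 and E13.5, Anxa3 in FVF+ cells (0.56, adjusted p = 0.466) and Car2 in FVF- cells (0.70, adjusted p = 0.253), and 0 between E14.5 and E15.5.

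Markers of other cell types moved with several of these values, and their part in the results was not tested. The mean signal of the 8 epithelial markers was 12.42 to 12.80 on FVF+ arrays and 8.09 to 9.87 on FVF- arrays. Among FVF- arrays it was 8.09 and 8.16 at E12.5, 8.33 and 8.58 at E13.5, 9.15, 8.27 and 9.87 at E14.5, and 8.66, 9.30 and 9.06 at E15.5. Replicate 3 of FVF- E14.5 was highest in epithelial markers and in Muc1, and replicate 2 of that group was lowest of its group in both. In FVF- cells 3 of 8 epithelial markers were higher at E15.5 than at E12.5 and 0 lower, and 4 of 5 measured acinar markers were higher. In FVF+ cells 4 of 5 acinar markers and 5 of 8 endocrine markers were higher at E15.5, the comparison in which Clu and Car2 rose. In the same comparison 5 of 10 mesenchymal markers were higher and 0 lower, with a median change of 0.702 beside the 0.69 of Car2. Higher too were 2 of 10 endothelial, 2 of 10 macrophage and 2 of 9 red blood cell markers, with 0 lower. The endothelial, macrophage and red blood cell shares were no larger than that of all genes, of which 27.6% were higher and 19.3% lower. The mesenchymal, acinar and endocrine shares of higher markers were larger than that. Of 8 epithelial markers 1 was higher and 2 lower, and of 7 mesothelial markers 1 was higher and 1 lower. Of 6 neural crest and glia markers 3 were higher and 1 lower. All 6 genes kept their direction and their call in the mean sort difference without replicate 1 of FVF+ E12.5, the FVF+ array highest in macrophage markers (8.25), and replicate 3 of FVF- E14.5, the FVF- array highest in epithelial markers. Other arrays carried more of other lists. Both FVF+ E13.5 arrays, at 9.33 and 9.57, exceeded replicate 1 of FVF+ E12.5, at 9.20, in mesenchymal markers, and replicate 3 of FVF- E15.5, at 11.47, exceeded replicate 3 of FVF- E14.5, at 11.02, in acinar markers. The 6 calls of the mean sort difference were kept without all E13.5 arrays as well.

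Beside the lower Anxa3 and Car2 of FVF+ cells, the 10 endothelial markers averaged 7.73 to 9.35 on FVF+ arrays and 10.04 to 11.51 on FVF- arrays. Of 7 measured mesothelial markers 6 were lower in FVF+ cells, with array means of 7.36 to 8.45 in FVF+ and 9.87 to 10.59 in FVF- cells. Of 9 measured markers of the red blood cell lineage 8 were lower in FVF+ cells and 1 was higher, with means of 7.24 to 8.19 in FVF+ and 8.88 to 9.92 in FVF- cells. Macrophage markers averaged 7.29 to 8.25 in FVF+ and 9.73 to 10.86 in FVF- cells, and mesenchymal markers 7.95 to 9.57 in FVF+ and 11.74 to 12.95 in FVF- cells. Among FVF+ arrays, Anxa3 was highest on replicate 2 of E13.5 and replicate 2 of E14.5, at 7.75 and 7.82, and the endothelial markers were highest on the same arrays, at 9.28 and 9.35. The next highest Anxa3 value, 7.58, stood on replicate 3 of FVF+ E15.5. That array was the lowest of its group in endothelial markers, at 8.09. For Car2 in FVF- cells, replicate 3 of E14.5 had the highest signal and the highest mean of red blood cell markers, 9.92, while at E15.5, where Car2 was above E12.5, those markers averaged 8.96, against 9.34 at E12.5. In FVF- cells 6 of 10 endothelial, 6 of 10 mesenchymal and 5 of 10 macrophage markers were higher at E15.5 than at E12.5 and 0 lower.

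**Figure D4:**
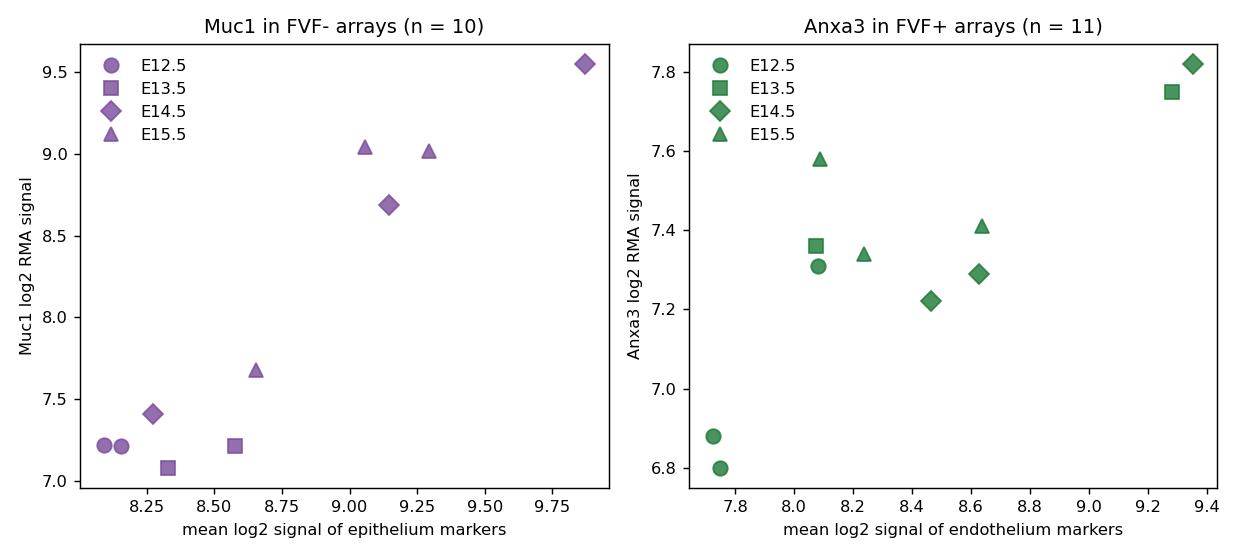
Left, Muc1 log2 signal on 10 FVF- arrays against the mean log2 signal of the epithelial markers; right, Anxa3 log2 signal on 11 FVF+ arrays against that of the endothelial markers, with 1 point per array and the marker shape giving the day. The highest Muc1 value, 9.55, lies at the highest epithelial mean, 9.87, and the highest Anxa3 values, 7.75 and 7.82, lie at the highest endothelial means, 9.28 and 9.35. The next highest Anxa3 value, 7.58, lies at an endothelial mean of 8.09.

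Related genes were set beside the 6 by family and role. They are described by counts of calls and medians, to be read against the background shares above. Among the other mucins and Prom2, 10 of 11 were measured and 3 were higher in FVF+ cells, 0 lower and 7 not called, with a median difference of 0.07. Prom2, a paralogue of Prom1, was higher by 1.19 ± 0.08, Muc4, a membrane mucin, by 1.02 ± 0.07 and Muc20 by 0.26 ± 0.06 (SE), whereas the gel-forming Muc6 and Muc5b each differed by 0.07 without a call. Over the days in FVF+ cells 6 of the 10 rose and 0 fell, led by Muc4 with 1.37 ± 0.13, which had averages of 9.01 at E15.5 and 7.64 at E12.5, and Muc20 with 0.62 ± 0.12 (SE).

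The annexins beside Anxa3 went both ways. Of 11, 5 were higher in FVF+ cells, 4 lower and 2 not called. Anxa4 was higher by 2.73 ± 0.06, with means of 12.32 in FVF+ and 9.59 in FVF- cells, and Anxa13, an annexin of gut and kidney epithelia, by 1.32 ± 0.06 (SE). Anxa2, Anxa5 and Anxa6 were lower, with differences of -1.44, -1.26 and -1.07 log2 units, each smaller than that of Anxa3. Over the days in FVF+ cells 8 of 11 rose and 1 fell. Anxa13 rose by 2.17 ± 0.12, to 9.08 at E15.5 in FVF+ cells, and Anxa9 fell by 0.96 ± 0.17 (SE). In FVF- cells 3 of 11 rose and 0 fell, among them Anxa4, with means of 10.13 at E15.5 and 8.97 at E12.5.

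The carbonic anhydrases beside Car2 were also mixed, with 4 of 15 higher in FVF+ cells, 5 lower and 6 not called, and a median near 0 (-0.00958). Car9, a membrane isoform induced by low oxygen, was higher by 2.71 ± 0.10, Car14, another membrane isoform, by 1.55 ± 0.09, and Car8, a relative without catalytic activity, by 1.10 ± 0.07 (SE). Car12, Car11 and Car1 were lower, with differences of -1.30, -0.89 and -0.86 log2 units, each smaller than that of Car2. Over the days in FVF+ cells 5 of 15 rose and 3 fell. Car9 rose by 2.44 ± 0.17, with means of 11.82 at E15.5 and 9.38 at E12.5, and Car14 fell by 2.22 ± 0.17, with means of 8.10 at E15.5 and 10.32 at E12.5 (SE). In FVF- cells 2 of 15 rose and 1 fell.

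**Figure D5:**
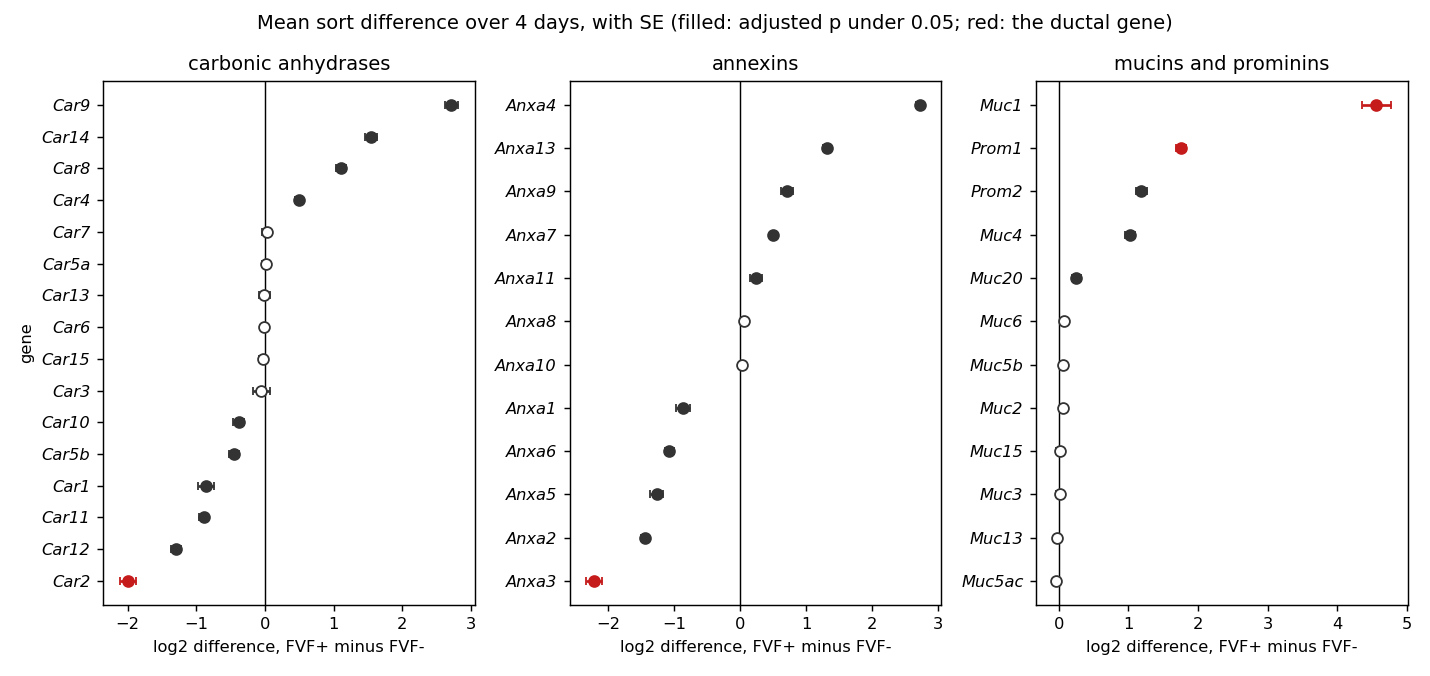
FVF+ minus FVF- mean difference in log2 signal for the carbonic anhydrases, the annexins, and the mucins with prominins, 1 point per gene, filled where called, with the SE as a bar and the duct genes in red. Anxa3 at -2.21 and Car2 at -1.99 lie below every other member plotted of their families, and Muc1 at 4.56 and Prom1 at 1.76 lie above the other mucins and Prom2.

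Among genes of fluid and bicarbonate secretion, 15 of 16 were measured, and 5 were higher, 5 lower and 5 not called in FVF+ cells, with a median of -0.01. The sodium pump subunit Atp1b1 was higher by 3.10 ± 0.09, the chloride transporter Slc26a9 by 2.17 ± 0.14 and the sodium bicarbonate cotransporter Slc4a4 by 1.22 ± 0.11 (SE). The calcium-activated chloride channel Ano1, the water channel Aqp1 and the secretin receptor Sctr were lower, with differences of -1.99, -0.95 and -0.51 log2 units. The anion exchanger Slc26a6 and the potassium channel Kcnn4 each differed by -0.10 without a call. Over the days in FVF+ cells 7 of 15 rose and 1 fell. Slc26a9 rose by 2.76 ± 0.25, Aqp1 by 1.20 ± 0.21 and Ano1 by 0.78 ± 0.15, and Slc4a4 fell by 0.51 ± 0.20 (SE). In FVF- cells 5 rose and 1 fell.

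Trunk regulators and cilium genes, 14 of 17 measured, had 11 higher, 2 lower and 1 not called in FVF+ cells, with a median of 1.18. The transcription factors Prox1 and Onecut1 were higher by 3.99 ± 0.20 and 3.96 ± 0.29 (SE), and the polycystin gene Pkd1 was lower, at -1.03 ± 0.07. Over the days in FVF+ cells 8 of 14 fell and 1 rose, with Onecut1 at -1.35 ± 0.54, Prox1 at -1.17 ± 0.37 and Sox9, a trunk transcription factor, at -1.04 ± 0.24 (SE). Duct epithelial surface genes, 15 of 16 measured, had 11 higher, 0 lower and 4 not called, and over the days in FVF+ cells 6 rose and 1 fell. The trefoil factor gene Tff2 rose by 1.79 ± 0.16 and the keratins Krt19 and Krt23 by 1.03 ± 0.24 and 1.02 ± 0.10 (SE). In FVF- cells 3 trunk genes rose and 1 fell, and 6 surface genes rose and 1 fell. The genes named here had the largest called changes of their lists on the arrays where Clu rose. Other members differed. Among surface genes Cd24a fell (-0.43 ± 0.16, SE) and 8 of 15 were not called. Among trunk genes Pkd1 rose (0.43 ± 0.13, SE) and 5 of 14 were not called. Krt19 rose in FVF- cells as well, by 2.29 ± 0.27 (SE), and its mean sort difference of 0.04 was not called. Tff2 and Krt23 had no called change in FVF- cells.

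Receptors that bind osteopontin or clusterin were measured for all 13 genes listed, and 2 were higher and 11 lower in FVF+ cells, with a median of -1.19. The integrin subunit Itgb6 was higher by 2.24 ± 0.12 and the lipoprotein receptor Lrp8 by 1.27 ± 0.07 (SE). The integrin subunits Itga8, Itga5 and Itga9 were lower, with differences of -3.39, -1.70 and -1.68 log2 units. Over the days in FVF+ cells Lrp8 rose by 0.79 ± 0.12, with Cd44, a hyaluronan and osteopontin receptor, at 0.57 ± 0.13, and Itga5 fell by 1.16 ± 0.15 (SE). In all, 3 of the 13 rose and 4 fell in FVF+ cells, and 4 rose and 2 fell in FVF- cells.

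For each gene the 3 genes with the most similar pattern over the 21 arrays were taken by Pearson r, a description in which all points share the split between sorts. Muc1 ran closest to Prss8, a membrane-bound serine protease of epithelia (r = 0.996), Elapor1 (0.996) and Cpn1 (0.993). Clu ran closest to Tuba4a (0.993), Qsox2 (0.989) and the stress-induced Nupr1 (0.987), and Prom1 to Jade3 (0.982), Cpm (0.977) and Ppm1l (0.976). Anxa3 was closest to Tek, the angiopoietin receptor of endothelium, and Upk3b, a uroplakin of mesothelium (0.987 each), followed by the mechanosensitive channel Piezo2 (0.984). Tek and Upk3b also belong to the endothelial and mesothelial marker lists above, so they are not a separate observation. Car2 was closest to Ube2l6 (0.976), Bmp6 (0.972) and Fes (0.966). For Cftr the closest were Zbtb38 and Retreg1 (0.752 each) and Krt80 (0.725).

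Over the 11 FVF+ arrays alone the split between sorts is absent, but the arrays differ in day and in markers of other cells. Most of the closest genes were others there, with Tek kept for Anxa3. Muc1 ran with Mat1a, a methionine adenosyltransferase, and Slc38a3, a glutamine transporter (r = 0.983 each), and with Tuba4a (0.978). Clu ran with Nfatc1 and Pnliprp1, a pancreatic lipase-related gene (0.993 each), and Tmed6 (0.99). Anxa3 ran with Tek (0.917), followed by Cavin1 (0.901), a coat protein of caveolae, and Flt4 (0.899), a vascular endothelial growth factor receptor. Car2 ran with Nbeal2 (0.942), Unc13a (0.934) and Mical2 (0.929). Prom1 ran with Ell2 (0.931), Pak3 (0.928) and St18 (0.914). Cftr ran with Wfdc17 (0.834), Rps3a1 (0.762) and Srsy (0.728).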

How the data were processed

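Gene expression was measured on 21 Affymetrix arrays of FACS-sorted mouse embryonic pancreas. RNA was isolated on RNeasy Mini columns and amplified (Ambion WT Expression) before Affymetrix WT labelling, per the labels' protocols. The authors deposited log2 signals, made by RMA with affy 1.44.0 per the submitters' processing notes. The probe set definition and any filter are not given in the sources used here. The scanner intensities were not used here, and RMA can compress differences of dim genes.

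Of 23305 rows, 20728 had exactly 1 symbol in the platform annotation, and the row with the highest mean was used for each of 19296 genes. Each measured duct gene had 1 row. Groups came from the sample labels. A model with 8 group means was fitted in limma 3.58.1 (R 4.3.3, empirical Bayes, 13 residual degrees of freedom), with two-sided p-values, Benjamini-Hochberg adjustment across the 19296 genes of each of 14 comparisons, and calls at an adjusted p under 0.05. Steps were tested on simulated data. SE is moderated, and SD is between arrays.

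The duct genes, the 7 lists of related genes and the 9 marker lists were chosen with earlier results of these data known. The lists share genes. Epcam, Cdh1, Krt8 and Krt18 were both epithelial markers and duct surface genes, and Nkx6-1 was both an epithelial marker and a trunk gene. Named genes were every measured duct gene, Foxa2, up to 3 called genes per direction of each related list for the mean sort difference and for the FVF+ change, up to 2 not called, and the 3 nearest patterns of each duct gene with a range of at least 1 log2 unit, passing over predicted genes. Listed genes without a row were not analysed here. Alternatives were median centring, quantile and cyclic loess normalization, a trended robust moderation, array weights, a filter on dim genes, the mean of a gene's rows, leaving out E13.5, a replicate block, leaving out each array, a 2-fold threshold and, chosen after seeing the data, leaving out replicate 1 of FVF+ E12.5 and replicate 3 of FVF- E14.5 together. Promoters were taken from RefSeq.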

Additional observations from a re-analysis of the deposited data

Results flagged for a closer look

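Prom1 was the 1 duct gene of 6 whose change over the days differed between the sorts by a test of the difference itself. In that test 19.6% of all genes passed, so the count of 1 says little about the duct genes. The FVF+ change minus the FVF- change was 1.10 log2 units (SE 0.20, limma adjusted p = 0.00125). In FVF+ cells all 3 arrays of E15.5 lay above all 3 arrays of E12.5, at 10.57, 10.44 and 10.60, against 10.20, 10.23 and 10.30. In FVF- cells the 3 arrays of E15.5 lay below both arrays of E12.5, at 8.07, 8.18 and 8.46, against 8.98 and 9.10. The FVF+ change of 0.29 was not called (limma adjusted p = 0.0799), and the FVF- change of -0.80 was called (limma adjusted p = 9.17e-04). In the test of the difference between sorts, endocrine markers had a median of 1.21 (3 of 8 higher, 0 lower). Epithelial markers had a median of -1.27 there (4 of 8 lower, 0 higher). The medians of the other marker lists lay between -0.988 and 0.085, and the part of any list was not tested. Groups held at most 3 arrays, too few for a test of single outlying arrays.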

How the results depend on the processing

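No value of the 6 genes that was called changed sign under any alternative run. Of 1366 values of single genes other than under the 2-fold threshold, 42 lay on the other side of the threshold. The mean sort difference had 6 calls, and 5 at the 2-fold threshold and under the filter on dim genes, where Cftr was below the threshold or had no value. The interaction had 1 call, Prom1, under every alternative run. At a 2-fold threshold the calls were 1 in place of 2 for E15.5 minus E12.5 in FVF+ cells, 2 in place of 6 in FVF- cells, and 0 in place of 1 for E14.5 minus E13.5 in FVF- cells. The same step in FVF- cells had 2 calls under median centring, quantile normalization, the filter on dim genes, the replicate block and the omission of 2 arrays chosen after seeing the data, and 0 with array weights. Leaving out each array gave 1 to 3 calls for E15.5 minus E12.5 in FVF+ cells, 2 to 4 in FVF- cells, 0 to 1 for E14.5 minus E13.5 in FVF+ cells and 0 to 3 in FVF- cells. The causes were not tested.

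Whether same-numbered FVF+ and FVF- arrays form pairs was not settled. Their deviations from the group means correlated at -0.368 to 0.488, and with 2 or 3 arrays per group such correlations cannot decide it. With the replicate block, the Cftr calls at E12.5 (difference 0.23, adjusted p = 0.201) and over the days in FVF- cells (0.31, 0.065) were lost, and Prom1 gained a call over the days in FVF+ cells (0.29, 0.0399) and from E13.5 to E14.5 in FVF- cells (-0.52, 0.0198).

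Counts over all genes moved more. At a 2-fold threshold they were 2284 in place of 10744 for the mean sort difference, 2238, 2163, 2781 and 2600 in place of 6930, 5970, 8604 and 8478 by day, 1042 in place of 9048 for the FVF+ change, 642 in place of 3945 for the FVF- change and 1102 in place of 3786 for the interaction. The interaction had 5858 calls with array weights, 2497 under the filter on dim genes, which tested 11407 genes, and 2392 with the replicate block, and the FVF+ change 5945 under that filter. Leaving out each array gave 1995 to 3372 calls for the FVF- change, lowest without replicate 1 of FVF- E12.5, and 1818 to 3443 for the interaction, lowest without replicate 2 of FVF- E12.5. Among single steps, FVF+ E13.5 minus E12.5 had 1 call and 0 to 128 across alternatives. FVF+ E14.5 minus E13.5 had 1707, with 301 at the 2-fold threshold, 4210 with array weights and 555 to 1664 when each array was left out. FVF+ E15.5 minus E14.5 had 4931, with 170 and 8661, 2222 to 5687 when each array was left out, 2889 after quantile normalization, 2721 after cyclic loess normalization and 2491 under the filter on dim genes. FVF- E13.5 minus E12.5 had 197, with 61 and 119, and 4 to 413 when each array was left out. FVF- E14.5 minus E13.5 had 1602, with 165 and 298, and 33 to 2894 when each array was left out. FVF- E15.5 minus E14.5 had 1253, with 51 at the 2-fold threshold, 625 after cyclic loess normalization and 298 to 1069 when each array was left out. RMA values carry no detection call, so it is not known whether Cftr was above background, and in 3 groups the spread rests on 2 arrays.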
